A study of Mus musculus with 4 samples.

Results

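Eosinophils were examined among liver cells that had been sorted as monocyte-derived cells from male C57BL/6 mice. They were defined as cells with at least 1 UMI (unique molecular identifier, 1 counted transcript) of Ccr3, at least 1 UMI of at least 1 of 5 partner genes (G0s2, Retnlg, Alox15, Siglecf and Il5ra), and less than 1% of UMIs from Lyz2. Of 9609 retained cells, 1064 met this rule, which is 11.1%. They numbered 90 and 38 in the 2 libraries from mice on the control diet (NCD) and 589 and 347 in the 2 libraries from mice on the diet deficient in methionine and choline (MCD).

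All mice were wild type, were 8 weeks old when bought, and received either diet for 6 weeks. The sort kept live, 7AAD-negative CD45+ cells that were Ly6G- and of intermediate CD11b. The F4/80 level of the sort is given as low in the series text and as high in the sample labels. No source used here says how many mice make up a library, so a p-value measures the spread between libraries, which may be technical. Each library belongs to 1 diet and no label names a batch, so diet and preparation cannot be told apart. Ly6G is a surface protein of neutrophils, and the labels call the sorted cells monocytes.

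Eosinophils are granulocytes that mature in the bone marrow under interleukin 5, whose receptor subunit is encoded by Il5ra. Eotaxin chemokines draw them into tissues through the receptor CCR3. They respond to interleukin 33 through ST2, the product of Il1rl1, and they are a source of interleukin 4, which in mouse liver has been tied to regeneration after injury. Siglec-F, encoded by Siglecf, is an inhibitory lectin used to identify them in the mouse, and Alox15 encodes an oxygenase that makes lipid mediators. G0s2, an inhibitor of fat breakdown, and Retnlg, a resistin-like protein, are transcribed in neutrophils as well.

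The sequences upstream of 3 receptor genes are shown. Ccr3 and Il5ra are genes of the rule, and Il1rl1, which is not, is among the largest rises described below. Each is the 250 bases that precede the annotated start, 5′ to 3′ on the strand of the gene, from RefSeq on GRCm38.p6. Capitals mark GATAA or its reverse complement TTATC, the core that GATA factors recognise, and these patterns do not overlap each other here. The regions are chr9:124021721-124021970 on the plus strand for Ccr3, chr6:106749038-106749287 on the minus strand for Il5ra and chr1:40429320-40429569 on the plus strand for Il1rl1.
Ccr3: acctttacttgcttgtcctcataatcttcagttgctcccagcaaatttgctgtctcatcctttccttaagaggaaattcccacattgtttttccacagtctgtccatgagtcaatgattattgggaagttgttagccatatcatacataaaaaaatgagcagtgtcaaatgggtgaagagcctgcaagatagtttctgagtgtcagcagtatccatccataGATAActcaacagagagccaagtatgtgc
Il5ra: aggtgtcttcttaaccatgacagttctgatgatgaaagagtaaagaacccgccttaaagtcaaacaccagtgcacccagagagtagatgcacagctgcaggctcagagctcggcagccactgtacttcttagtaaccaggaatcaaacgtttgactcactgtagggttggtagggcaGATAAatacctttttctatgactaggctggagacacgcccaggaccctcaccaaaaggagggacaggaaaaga
Il1rl1: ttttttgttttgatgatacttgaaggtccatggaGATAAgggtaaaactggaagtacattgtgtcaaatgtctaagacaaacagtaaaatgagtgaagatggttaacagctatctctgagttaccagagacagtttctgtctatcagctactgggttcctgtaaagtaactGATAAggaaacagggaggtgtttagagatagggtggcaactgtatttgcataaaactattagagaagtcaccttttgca
The Ccr3 and Il5ra windows each held 1 match and the Il1rl1 window shown held 2, while the corresponding windows of Siglecf, Retnlg, G0s2 and Hdc held 0. Another annotated start of Il1rl1, with the window chr1:40439379-40439628, held 1 match, and the Il4 windows held 0. Over all 32851 promoters in the RefSeq table, 22.6% held at least 1 match in the same length, so a match by itself is common. In the eosinophils Gata1, the lineage factor that binds this core, had 3, 0, 40 and 7 UMIs and Gata2 had 2, 4, 60 and 35 UMIs in NCD replicates 1 and 2 and MCD replicates 1 and 2. Values for 4 libraries are given in this order throughout.

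Ccr3 (ENSMUSG00000035448) lies on chromosome 9 from 124021972 to 124031689, Siglecf (ENSMUSG00000039013) on chromosome 7 from 43351341 to 43359531, and Il5ra (ENSMUSG00000005364) on chromosome 6 from 106710357 to 106749037 of GRCm38. Alox15 (ENSMUSG00000018924) lies on chromosome 11 from 70344152 to 70352031, Retnlg (ENSMUSG00000022651) on chromosome 16 from 48872621 to 48874496, and G0s2 (ENSMUSG00000009633) on chromosome 1 from 193272161 to 193273217. Each is annotated as protein coding.

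The rule fixed that its own genes would be high in the chosen cells, so their levels are a description without a test. In CPM, the UMIs of a gene scaled to 1000000 UMIs of the summed cells, Ccr3 stood at 736, 1084, 1021 and 862 in eosinophils and at 4.65, 2.54, 3.17 and 2.03 in the other retained cells. Retnlg was the most abundant partner gene, with 2030.5, 3680.0, 5823 and 8579.8 CPM against 56.2, 20.7, 82.8 and 88.4 CPM. G0s2 had 1781, 2853, 3032 and 1906 CPM, and Alox15 had 199, 114, 336 and 241 CPM. Siglecf was at 76.1, 57.1, 140.4 and 95.4 CPM and Il5ra at 12.7, 14.3, 25.3 and 18.3 CPM, the latter from 3, 1, 35 and 15 UMIs. With Siglecf, Il5ra and Alox15 as the only partner genes, 38, 11, 335 and 162 cells remained.

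Ccr3 was seen as 1 UMI in 439 of the chosen cells and as 2 or more in 625, and 163 cells had 1 of the 5 partner genes, 465 had 2 and 436 had 3 or more. A further 152 cells had Ccr3 but no partner gene, and 22 cells, all in MCD libraries, failed only the Lyz2 ceiling. The highest Lyz2 share inside the rule was 0.995% and the lowest outside it was 1.03%. In the other direction, 344 cells of at most 3000 UMIs had 2 or more partner genes and little Lyz2 but no Ccr3 UMI.

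The libraries differed in depth by diet. The deposited totals were 7518597, 7428431, 32975974 and 37772284 UMIs, and the other cells had a median of 2198, 2272.5, 13506 and 12953 UMIs. Eosinophils had fewer UMIs per cell, with medians of 896.5, 825.5, 1478 and 1350 UMIs and 540.5, 510.5, 823 and 765 genes. Their median was 0.408 and 0.363 of that of the other cells in the NCD libraries and 0.109 and 0.104 in the MCD libraries. Between 4 and 12 barcodes recurred in each pair of libraries.

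A minority of deep cells weighed on every sum. Of the 1064 cells, 115 (10.8%) exceeded 3000 UMIs, and these held 69.0%, 61.0%, 44.3% and 46.8% of the eosinophil UMIs. In these deep cells the 8 dendritic cell markers summed to 5546, 4278, 8686 and 10613 CPM and the 10 monocyte markers to 5019, 4535, 5505 and 4607 CPM. In the 949 eosinophils of at most 3000 UMIs the same lists summed to 1762, 146, 990.3 and 1362 CPM and 833, 403, 1487 and 1900.3 CPM. In the other retained cells they summed to 5839, 4143, 7222 and 7244 CPM and 6924, 7029, 19011 and 21833 CPM. The 5 endothelial markers summed to 2059, 2267, 1051 and 880 CPM in the deep cells and 805, 1436.5, 163 and 355 CPM in other cells. The eosinophil list, which holds the genes of the rule, summed to 15463, 19578, 19784 and 24016 CPM in the shallower cells. In the deep cells it summed to 1734, 2384, 3240 and 1400 CPM, and in the other cells to 276, 191, 324 and 301 CPM. The minimum of 1 UMI in the rule weighs more in a shallow cell, so this gap is a description without a test. Whether the name fits the deep cells was not tested. Doublets were not removed, and their part in these levels was not tested. Results are therefore given over all 1064 cells and again over the 949, a limit that was set after the depths had been seen.

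**Figure D1:**
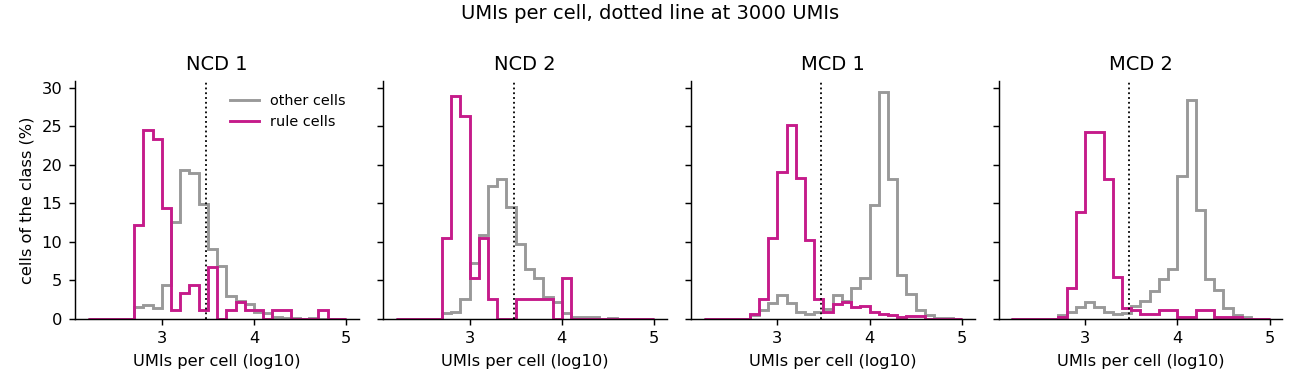
UMIs per cell on a log10 axis for eosinophils, labelled rule cells (pink), and other retained cells (grey), as the percent of the cells of that class, 1 panel per library. In the MCD libraries the bulk of eosinophils (median 1478 and 1350 UMIs) lies well below the bulk of other cells (13506 and 12953), and the tail to the right of the dotted line at 3000 UMIs is the 115 deep cells.

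The label was set beside the markers of the eosinophil list that the rule did not use. Of these, 2 had enough counts to be tested, with Cd24a called higher and Ear2 lower. Cd24a, a surface glycoprotein abundant on eosinophils, stood at 1007, 1169.6, 1983 and 1657 CPM against 49.7, 32.1, 61.4 and 56.4 CPM in other cells. Il1rl1, which is outside that list and among the largest rises described below, was also high. Of the granule protein genes, most had few or no UMIs. Eosinophil peroxidase, Epx, had 0, 0, 2 and 0 UMIs, the major basic protein gene Prg2 had 3, 0, 16 and 6 and Ear1 had 0, 0, 1 and 0. Ear6, an eosinophil ribonuclease, had 0, 0, 24 and 10 UMIs, and the prostaglandin D2 receptor Ptgdr2 had 2, 1, 6 and 0. Ear2 was the granule gene with the highest level, at 123, 71.3, 53.5 and 39.1 CPM against 89.7, 92.5, 112 and 98.7 CPM in other cells. On NCD all Ear2 UMIs came from the deep cells, and the eosinophils of at most 3000 UMIs had none in either NCD library. Granule proteins are made mainly by precursors in the marrow, and the part of this in the low counts was not tested.

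The sort and the rule could let in other granulocytes. Of 8 neutrophil markers tested against the other cells, 6 were lower and 2, Mmp9 and the decoy interleukin 1 receptor Il1r2, higher. Over all genes tested 11.4% were called higher and 13.5% lower. The 13 markers of that list summed to 233, 242, 294 and 418 CPM in eosinophils and 2969, 2545, 689 and 253 CPM in other cells, lower in eosinophils in 3 of 4 libraries. Il1r2 was at 33.8, 99.8, 77.4 and 169 CPM against 16.7, 18.2, 27.2 and 37.5 CPM. The neutrophil genes S100a8 and S100a9 had 2, 2, 16 and 14 and 7, 0, 13 and 16 UMIs, Ly6g had none in any library, and the neutrophil chemokine receptor Cxcr2 had 1, 0, 3 and 1. Of the 1064 cells none met a gate for neutrophils and 2 met a gate for basophils, and these gates held 10 and 33 retained cells in all. Of 9 basophil markers tested, Gata2, Cd200r3, Hdc and Il4 were higher and none lower. The 10 markers of the list summed to 351, 813, 457 and 385 CPM in eosinophils and 170.4, 296, 23.8 and 41.7 CPM in other cells, higher in eosinophils in every library. Hdc and Il4 made up most of each eosinophil sum. In the eosinophils of at most 3000 UMIs, 8, 4, 4 and 4 of the 10 had no UMI. The basophil protease Mcpt8 had 2, 0, 5 and 0 UMIs in the eosinophils, and the receptor chain Fcer1a was at 8.46, 0, 6.51 and 0 CPM. The part of basophil transcripts in the results for Il4, Hdc and Gata2 was not tested. The 8 macrophage markers summed to 1409, 842, 1349 and 1595 CPM in eosinophils and 1345, 1514, 3628 and 4170.3 CPM in other cells, and the 5 endothelial markers to 1561, 1669, 527 and 521 CPM and 805, 1436, 163 and 355 CPM, higher in eosinophils in every library. In the 949 shallower cells the endothelial sums were 451, 732, 109 and 205 CPM. Of the 5 endothelial markers tested, only Pecam1 was called higher over all eosinophils and none lower. Over the shallower cells Pecam1 was higher and Cdh5, Stab2, Kdr and Clec4g were lower. Markers of T cells, B cells, Kupffer cells and hepatocytes summed to at most 37.6 CPM over all eosinophils of any library. The Kupffer cell sums were 0, 0, 11.6 and 34.2 CPM against 15.4, 31.5, 5.91 and 5.99 CPM in other cells. They were higher in eosinophils in both MCD libraries and lower in both NCD libraries. In the 949 shallower cells they were 0, 0, 19.5 and 62.1 CPM. Vsig4, the 1 Kupffer cell marker tested, was called higher only in the shallower cells. Free RNA in the droplets was not removed, so a low level of a gene abundant in other cells need not come from the eosinophils themselves.

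Eosinophils took a larger share of the MCD libraries than of the NCD libraries under the rule as given. The shares were 5.19% (95% exact Clopper-Pearson interval 4.19 to 6.34) and 2.13% (1.51 to 2.91) on NCD, and 19.97% (18.5 to 21.5) and 11.1% (9.98 to 12.2) on MCD. Both MCD shares lay above both NCD shares. The means were 15.5 ± 6.30% and 3.66 ± 2.16% (SD, n = 2 libraries), a difference of 11.9 points. The exact two-sided permutation p was 0.33, the smallest that 2 libraries against 2 can give. The intervals cover counting error only.

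This order depended on the mitochondrial ceiling. With at most 5% in place of 10% mitochondrial UMIs, the share was 17.9% and 12.1% on NCD and 11.2% and 7.40% on MCD, so that the difference was -5.65 points. That ceiling left 218 and 199 NCD cells in all. On NCD the other cells had a median mitochondrial share of 7.69% and 7.5% and the eosinophils one of 5.69% and 4.56%, whereas on MCD the other cells had 3.55% and 3.30% and the eosinophils 5.31% and 4.70%. The stricter ceiling kept 39 of 90 and 24 of 38 eosinophils on NCD, and 250 of 589 and 192 of 347 on MCD. With no ceiling the shares averaged 15.2% on MCD and 2.62% on NCD. After every cell was thinned to 500 UMIs before the rule was applied, they averaged 8.02% and 2.37%. A share of sorted cells does not give a number of cells per liver.

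**Figure D2:**
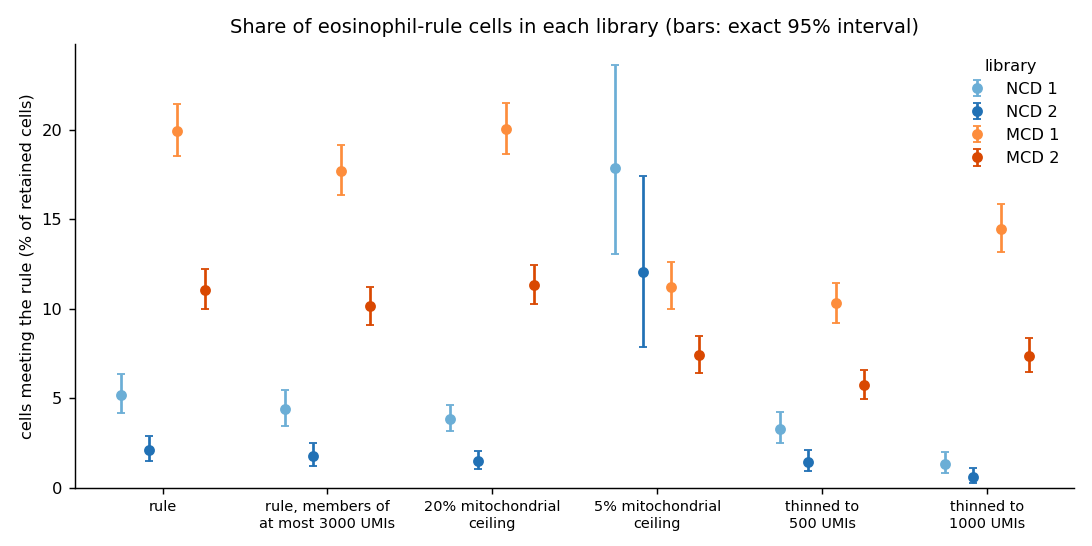
Share of retained cells that met the eosinophil rule in each library, in percent, under the rule and 5 other settings. Points are libraries and bars exact 95% intervals; the MCD libraries lie above the NCD libraries in every setting shown except the 5% mitochondrial ceiling.

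Eosinophils were set against the other cells of the same library by summing UMIs per class and library. A gene was called at an adjusted p under 0.05 in the edgeR quasi-likelihood test with library as a block, Benjamini-Hochberg adjusted over all genes tested. Of 9931 genes tested, 2474 were called (24.9%), of which 1132 were higher in eosinophils (11.4%) and 1342 lower (13.5%). The split depends on scaling: by library totals 2203 were higher and 809 lower, and the median log2 value moved from -0.04 to 0.25. The cells were chosen on their own transcripts, so the calls describe which genes accompany the rule genes in a cell and are no evidence for the choice. Rule genes and mitochondrial genes are left out of every count.

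Among the 15 largest rises, taken over called genes with a mean of at least 100 CPM in the higher class and without ribosomal protein genes, were genes of the interleukin 33 receptor, interleukin 4, a matrix-degrading enzyme and a semaphorin. Tesc, the calcium-binding protein tescalcin, was at 59.2, 85.6, 129.5 and 139 CPM in eosinophils and 1.69, 0.195, 2.39 and 1.59 CPM in other cells. Its log2 difference was 5.84 ± 0.31 (approximate SE, derived from the test statistic, adjusted p = 4.12e-10 in edgeR). Il1rl1 (ENSMUSG00000026069, chromosome 1 from 40429570 to 40465415) was at 97.3, 157, 198 and 136 CPM against 4.44, 8.21, 4.33 and 3.11 CPM, a difference of 4.81 ± 0.29 (adjusted p = 1.85e-09 in edgeR). In both genes every eosinophil sum lay far above every sum of other cells.

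Il4 (ENSMUSG00000000869, chromosome 11 from 53602982 to 53618669) was at 88.8, 214, 153 and 104 CPM against 12.3, 11.9, 3.26 and 2.2 CPM, 4.41 ± 0.40 on the log2 scale (adjusted p = 2.64e-07 in edgeR). Basophils also transcribe Il4, which is in their marker list above. Mmp9, the gelatinase that degrades basement membrane, was at 102, 99.8, 139.7 and 172 CPM against 3.38, 1.17, 3.20 and 2.91 CPM, 5.32 ± 0.26. Sema7a, a membrane-anchored semaphorin, was at 237, 299.5, 444 and 289 CPM against 6.98, 2.54, 11.6 and 9.65 CPM, 4.99 ± 0.25.

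Further genes of the 15 ran from 5.22 for 9830107B12Rik to 3.70 for Alox5, the 5-lipoxygenase that starts leukotriene synthesis. They included P2ry14, the receptor for UDP-glucose (4.06), Ikzf2, the transcription factor Helios (4.08), Cd24a (4.46) and F5, coagulation factor V (3.75). Fam101b (4.92), Ankrd33b (4.10) and Rab44 (4.01) were also among them. Over the 949 eosinophils of at most 3000 UMIs, 3998 of 9301 genes were called (43%), 1654 higher (17.8%) and 2344 lower (25.2%), and all 15 were among them, with larger values, for example 6.80 for Tesc and 5.79 for Il1rl1.

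The 15 largest falls at the same minimum level included genes known from neutrophils, monocytes and natural killer cells. S100a8 stood at 1428, 1258, 182 and 29.2 CPM in other cells and 8.46, 28.5, 11.6 and 17.1 CPM in eosinophils, and S100a9 and the neutrophil peptide gene Camp were lower by 4.0 ± 0.59 and 5.05 ± 0.42 on the log2 scale. Camp was not called by DESeq2, and S100a9 was not called once the cells of the neutrophil and basophil gates were taken out of the other cells. Ly6c2, a marker of classical monocytes, was at 97.3, 71.3, 60.8 and 52.6 CPM against 221, 245, 287 and 451 CPM, -2.53 ± 0.25. Gzma, the natural killer cell protease, was lower by 2.86 ± 0.48, the haptoglobin gene Hp by 2.86 ± 0.29, and F13a1, a coagulation factor of monocytes, by 2.41 ± 0.25.

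Genes of translation were low as a group. Of 101 ribosomal protein genes tested, 86 were lower and 3 higher, with a median log2 value of -1.52. They took 10.5%, 8.61%, 9.28% and 11.2% of eosinophil UMIs and 28.3%, 24.7%, 19.5% and 19.2% of those of the other cells. Fau, which encodes a ubiquitin-like fusion with a ribosomal protein, was lower by 2.39 ± 0.36. In the 949 shallower eosinophils the ribosomal share was 6.46%, 6.08%, 5.70% and 6.54%.

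**Figure D3:**
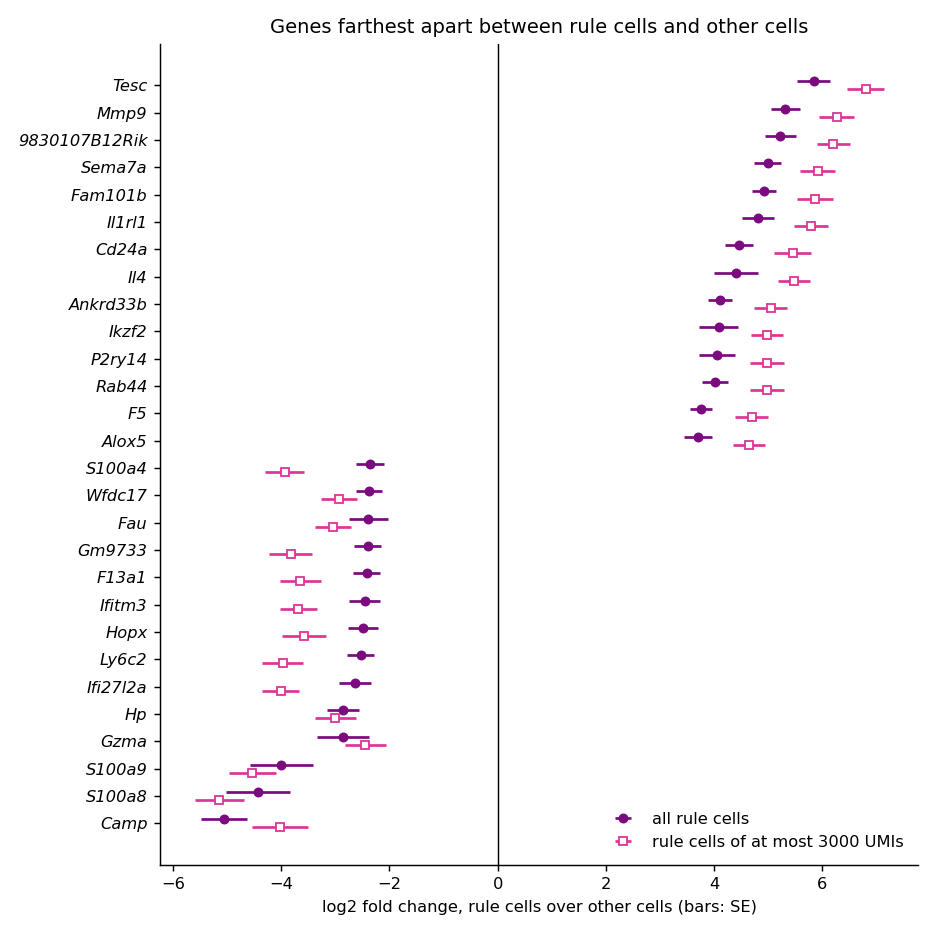
Log2 fold change of eosinophils, labelled rule cells, over the other cells of the same libraries for 14 of the 15 largest rises and 14 of the 15 largest falls, with approximate standard errors. Filled points are all 1064 cells and open squares the 949 of at most 3000 UMIs; the rises lie between 3.70 and 5.84 over all cells, and every square of a rise lies to the right of its point.

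Because eosinophils were shallower, the comparison was repeated with cells of at most 3000 UMIs in both classes. Then 68 of 4854 genes were called, all lower, and none of the 15 largest rises was. The other cells of that depth numbered 1185 and 1212 on NCD but 260 and 239 on MCD, and of the latter 61.5% and 55.6% were cells with 2 or more partner genes and no Ccr3 UMI. These MCD cells of at most 3000 UMIs had 6718 and 8584 CPM of Retnlg and 2260 and 1786 CPM of Cd24a. With such cells left out of both diets, 881 of 4118 genes were called, 377 higher and 504 lower. Of the 15 largest rises 14 were then called, at log2 values from 2.59 for Ikzf2 to 4.16 for 9830107B12Rik. Il1rl1 was at 3.16 (adjusted p = 0.0118) and Il4 at 2.62 (adjusted p = 0.00607), both in edgeR. Both repeats were chosen after the data had been seen, and the cells left out were picked by genes of the rule.

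Genes were then read by role, over lists of which each is given by its counts. Their medians compare with -0.04 over all genes tested. Their counts compare with 11.4% of all genes tested called higher and 13.5% called lower, and a list near these shares is no result about its genes. All values in the next paragraphs are log2 differences of eosinophils from other cells unless CPM is named. The second repeat limited both classes to 3000 UMIs and left out the Ccr3-negative partner-gene cells. A call lost in that repeat is marked as not held at matched depth. A gene without that mark was called there or had too few counts to be tested, which the mark does not tell apart. Of the 2474 calls 1569 could be tested there, and 680 were called with the same sign. With no cells left out of the limited classes no rise was called, so an unmarked rise is not shown to be independent of depth. By library totals Ifngr1, Cd53, Klf4, Jun, Ptger4 and Ccl4 were not called.

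Of 23 cytokine receptors tested, 2 were higher and 6 lower, with a median of -0.48. The higher genes were Il1rl1 and its signalling partner Il1rap, at 29.6, 14.3, 32.6 and 34.2 CPM against 11.8, 14.9, 8.31 and 7.84 CPM (1.5). The lower ones included Csf1r, the receptor for the macrophage growth factor (-1.04), and the interferon gamma receptor Ifngr1 (-0.61), neither held at matched depth. Of 17 chemoattractant receptors 7 were higher and 5 lower, with a median of 0.23. Cxcr4, the CXCL12 receptor that retains granulocytes in marrow, was at 1404, 2111, 1284 and 1063 CPM against 483, 596, 459.9 and 419 CPM (1.14). P2ry10, a receptor for lysophospholipids, rose by 2.54 and Ptafr, the receptor for platelet-activating factor, by 0.82. The monocyte receptors Ccr2 (-1.49) and Cx3cr1 (-1.47, not held at matched depth) and the leukotriene B4 receptor Ltb4r1 (-1.35) were lower.

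Of 28 cytokine and chemokine genes, 9 were higher and 9 lower, with a median of -0.44. Ccl6, a chemokine of myeloid cells, was the most abundant, at 2678, 3709, 5218 and 5246 CPM against 869, 974, 955 and 1013 CPM (1.69). Cxcl2, which attracts neutrophils, was at 1180.2, 2168, 2061 and 1634 CPM against 226, 198, 1013 and 1119 CPM (1.41). The interleukin 1 receptor antagonist Il1rn (1.64), the angiogenic factor Vegfa (1.75), Cxcl3 (2.58) and Il4 were higher as well. Csf1 (2.10), Il1a (1.27) and Il6 (0.84) were also called but not held at matched depth, and 69.2% of the Il6 UMIs of NCD replicate 2 came from 1 cell. Ccl4, at 596, 1683, 648 and 1060.4 CPM against 1155, 1686, 881 and 1266 CPM, was lower (-0.81, not held at matched depth).

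Of 15 genes of lipid mediator synthesis, 6 were higher and 2 lower, with a median of 0.10. Beside Alox5, the cyclooxygenase gene Ptgs2 was at 618, 1412, 637 and 691 CPM against 250.1, 238, 162 and 188 CPM (1.53). Pla2g7, which degrades platelet-activating factor, rose by 1.34. Hpgd, which inactivates prostaglandins, was lower (-1.01), as was the prostaglandin receptor gene Ptger4 (-0.88). Of 15 lipid storage genes, 2 were higher and 3 lower, with a median of -0.27. Dgat1, which makes triglyceride, was at 55.0, 128, 258 and 259 CPM against 8.25, 8.99, 21.9 and 28.1 CPM (3.04), and the monoglyceride lipase Mgll rose by 1.90, which was not held at matched depth.

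Of 26 NF-kappaB and immediate early genes, 10 were higher and 3 lower, with a median of 0.31. Junb was at 8473, 10712, 10033 and 6855 CPM against 1607, 1389.8, 3058 and 2796 CPM (1.68), and Tnfaip3, an inhibitor of NF-kappaB, was at 1451, 1683, 2488 and 2329 CPM against 251, 188, 305 and 425 CPM (2.39). Dusp1 (1.09) and Jund (1.24) were higher, while Jun (-0.86), Atf3 (-1.03) and Ier3 (-1.19) were lower, Atf3 and Ier3 not held at matched depth. Of 20 survival and death genes 4 were higher and 5 lower, with a median of -0.10. The survival kinase Pim1 was at 3515, 5106, 4673 and 4021 CPM against 1102, 1024, 1167 and 1186 CPM (1.53), and Birc3 rose by 1.27.

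Of 13 protease, inhibitor and matrix genes, 6 were higher and 3 lower, with a median of 0.37. Thbs1, a matrix glycoprotein, was at 1180.2, 1212, 1205 and 1539 CPM against 178, 227, 403 and 460.3 CPM (1.70). The transglutaminase Tgm2 rose by 2.48 and the metalloprotease Adam8 by 2.69. Fibronectin, Fn1, was lower (-1.85), as was the neutrophil collagenase Mmp8 (-3.31). Of 19 adhesion genes 7 were higher and 1, Cd53 (-0.74), lower, with a median of -0.03, and the tetraspanin Cd9 was at 804, 856, 1132 and 1181 CPM against 135, 168, 183 and 159 CPM (2.23).

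Interferon-stimulated genes were mostly low. Of 18 tested, 12 were lower and 1 higher, with a median of -1.12. Ifitm3 was at 1180.2, 542, 536 and 904 CPM against 3743, 3640.4, 2500.3 and 3049 CPM (-2.46), and Ifitm2 was at -1.54. Ifitm1 was called higher (0.95) but not held at matched depth, and it was not called without either MCD replicate. Of 16 Fc, pattern and complement receptor genes 9 were lower and 1, the degranulation marker Cd63 (0.88), was higher, with a median of -0.73.

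Of 17 genes of the NADPH oxidase and oxidant defence, 5 were higher and 7 lower, with a median of -0.52. The oxidase subunit Ncf1 (1.93) and catalase, Cat (1.52), were higher. The ferritin genes Fth1 (-1.24) and Ftl1 (-1.04) were lower, not held at matched depth. Of 15 lineage transcription factors 3 were higher and 3 lower, with a median of -0.27. Cebpe, which drives granule formation in granulocytes, rose by 3.38, Cebpb by 1.05, and Gata2 by 2.42, though 63.3% and 68.6% of the Gata2 UMIs on MCD came from 1 cell in each library. Klf4, a factor of monocytes, was lower (-0.84).

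Of 21 inhibitory and activating surface receptors, 7 were higher and 6 lower, with a median of -0.30. The adaptors Fcer1g (-1.78) and Tyrobp (-1.27) were lower, neither held at matched depth. Of 19 genes of glycolysis and hypoxia 1 was higher and 4 lower, with a median of -0.30. The higher one was Slc2a3, a glucose transporter (2.77), and Gapdh was lower (-1.16). Of 13 granule protein genes 2 had enough counts to be tested, and Ear2 (-1.02) and Prtn3 (-3.79), which monocytes also transcribe, were both lower.

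**Figure D4:**
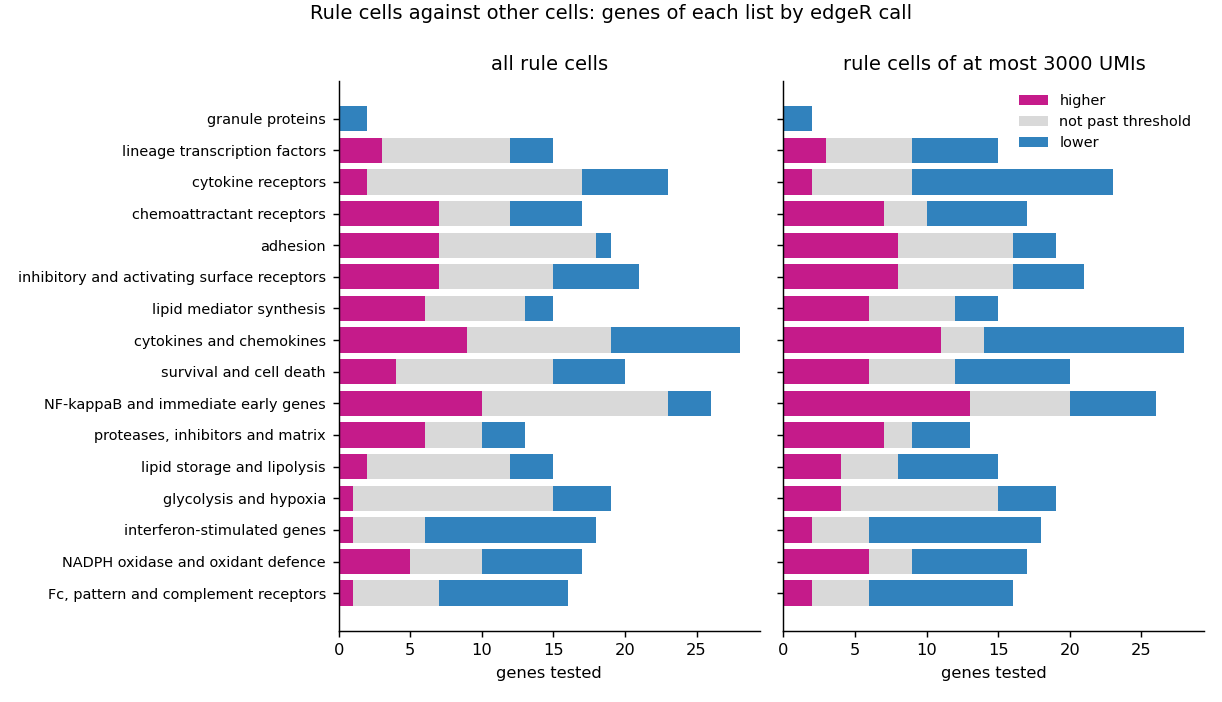
Number of tested genes in each list that were higher (pink), lower (blue) or not past the threshold (grey) in eosinophils, labelled rule cells, against other cells by edgeR, for all 1064 cells on the left and the 949 of at most 3000 UMIs on the right. Interferon-stimulated genes and Fc, pattern and complement receptors have 12 falls against 1 rise and 9 falls against 1 rise on the left.

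Eosinophils of MCD mice were compared with those of NCD mice over the 4 library sums. Of 6393 genes tested, 308 were called (4.82%), 153 higher on MCD (2.39%) and 155 lower (2.42%). Over the 949 shallower cells 67 of 3778 were called (1.77%), 30 higher (0.794%) and 37 lower (0.979%), and 51 genes were called in both with the same sign, 28 higher and 23 lower. The NCD sums of the shallower cells held 73205 and 27326 UMIs, which limits what could be called. With Siglecf, Il5ra and Alox15 as the only partner genes, which kept 38 and 11 NCD cells and 335 and 162 MCD cells, 1 gene was called, Fabp4, so none of the genes described next was. The count was 204 without MCD replicate 1, 204 without MCD replicate 2 and 117 with DESeq2.

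By fold, the 10 largest falls had few UMIs on MCD and the 10 largest rises had few or none on NCD. Serpinh1, a collagen chaperone, fell from 88.8 and 85.6 CPM to 5.07 and 2.45 CPM, a log2 change of -4.31 ± 0.54 (adjusted p = 0.00293 in edgeR). In the other cells of these libraries it was at 30.0, 71.0, 2.10 and 5.77 CPM. Cd300e, a receptor of mature monocytes, fell by 3.55 ± 0.47 and Ntn4, a netrin, by 2.73 ± 0.43, and none of the 10 largest falls had enough counts to be tested in the shallower cells. The endothelial marker sums given above were also higher on NCD, in eosinophils and in other cells, and their part in these falls was not tested.

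Srxn1, which repairs oxidised peroxiredoxins, had 0 UMIs on NCD and 96 on MCD, which is at least 4.46-fold higher against a floor of 3 UMIs over the NCD libraries (the 95% counting interval of the ratio starts at 3.56). Ikbke, a kinase of interferon signalling, had 0 and 82 UMIs, at least 3.81-fold higher against the same floor (interval from 3.03). Gdf15, a stress-induced cytokine, had 1 UMI on NCD and 245 on MCD, a ratio of 34.1 with a 95% counting interval of 6.07 to 1354. Retnla, a resistin-like product of type 2 immunity, had 1 and 126 UMIs, a ratio of 17.6 (3.09 to 699). None of these genes passed in the shallower cells, where Retnla was at 3.27 (adjusted p = 0.111 in edgeR) and the others had too few counts to be tested. Retnla was not called without NCD replicate 1 or with up to 20% mitochondrial UMIs, and Srxn1 and Ikbke were not called without NCD replicate 1.

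The genes in the next paragraphs were called both over all eosinophils and over the shallower ones, and were picked for description after their values had been seen. Counts of lists given there compare with 2.39% of all genes tested called higher on MCD and 2.42% called lower. Over the shallower cells these shares were 0.794% and 0.979%. Several were higher on MCD at levels above those of the other cells of the same libraries. Fgfr1, a fibroblast growth factor receptor (ENSMUSG00000031565, chromosome 8 from 25513654 to 25575718), was at 88.8, 14.3, 268 and 205 CPM, and at 123, 36.6, 419.8 and 352 CPM in the shallower cells. In the other cells it was at 13.5, 12.1, 12.7 and 13.6 CPM, with no separation by diet. The second NCD sum of eosinophils rests on 1 UMI. Its log2 change in eosinophils was 1.85 ± 0.39 (adjusted p = 0.0208 in edgeR) and 2.00 in the shallower cells (adjusted p = 0.00979).

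Dgat1 (ENSMUSG00000022555, chromosome 15 from 76502015 to 76511953) rose on MCD from 55.0 and 128 CPM to 258 and 259 CPM, 1.86 ± 0.33 on the log2 scale (adjusted p = 0.00965 in edgeR), and it was not called without NCD replicate 1. Lmna, which encodes lamins of the nuclear envelope, was at 33.8, 28.5, 203 and 159 CPM (2.54 ± 0.38) and the decapping enzyme Dxo at 29.6, 42.8, 189 and 170.0 CPM (2.51 ± 0.37). In each of these genes both MCD sums lay above both NCD sums. In the other cells they lay lower but were also higher in both MCD libraries, at 8.25, 8.99, 21.9 and 28.1 CPM of Dgat1, 9.30, 6.84, 24.5 and 25.2 CPM of Lmna and 3.59, 4.30, 15.8 and 14.4 CPM of Dxo.

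Genes known from the responses to amino acid shortage and to oxidants were among those that rose. Slc7a11, the cystine transporter that feeds glutathione synthesis (ENSMUSG00000027737, chromosome 3 from 49892526 to 50443614), was at 106, 57.1, 488 and 346 CPM, a change of 2.25 ± 0.32 (adjusted p = 0.00398 in edgeR). Gpx4, the peroxidase that reduces lipid hydroperoxides, was at 84.6, 99.8, 356 and 318 CPM (2.00 ± 0.27), and Atf4, the factor that drives the amino acid response, at 292, 414, 814 and 696 CPM (1.25 ± 0.24). Atf3 rose by 1.32 ± 0.30 and the ferritin light chain Ftl1 by 1.85 ± 0.27. The levels in the other cells also lay higher in both MCD libraries for each of these genes, for example 33.6, 34.2, 229 and 175 CPM of Slc7a11 and 596, 603, 5743 and 5553 CPM of Ftl1. Atf4 was not called without MCD replicate 1, nor Atf3 without MCD replicate 2. Over the whole list of NADPH oxidase and oxidant defence, 7 of 17 genes rose and none fell, with a median of 0.79 against 0.02 over all genes tested, and over the shallower cells 3 rose.

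Of 20 surface receptor genes tested, 3 rose and none fell. The inhibitory receptor Lilrb4a was at 178, 157, 519 and 422 CPM (1.53 ± 0.25), Lilr4b at 199, 271, 617 and 519.8 CPM (1.43 ± 0.24) and Tyrobp, an adaptor of activating receptors, at 901, 585, 1608 and 1717 CPM (1.19 ± 0.25). Over the shallower cells the same 3 were called. Levels in the other cells also lay higher in both MCD libraries, at 169, 162, 573 and 571 CPM of Lilrb4a, 75.1, 85.2, 324 and 313 CPM of Lilr4b and 1715, 1637, 2579.7 and 2459.9 CPM of Tyrobp. Lilrb4a and Lilr4b are close copies of each other, so reads could be split between them. Of 26 NF-kappaB and immediate early genes tested, Fosb (1.37 ± 0.22), Jund and Atf3 rose and none fell. Over the shallower cells 25 were tested, of which 2 rose, Fosb and Atf3, and 3 fell, Fos, Junb and Zfp36. The calcium-binding protein S100a6 rose by 1.36 ± 0.22 and the oxidase subunit Cyba by 1.59 ± 0.23. Cyba in the other cells was at 463, 377, 1504 and 1426 CPM.

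Of 15 interferon-stimulated genes tested, 3 fell on MCD and none rose, with a median of -0.27. Gbp2, a guanylate-binding protein, was at 199, 257, 89.0 and 36.7 CPM over all eosinophils and at 164, 622, 23.4 and 9.20 CPM in the shallower ones, changes of -1.66 ± 0.38 (adjusted p = 0.0306 in edgeR) and -4.02. Rsad2, an antiviral enzyme, fell by 1.52 ± 0.38 and Ifi47 by 1.81 ± 0.37. Ifi47 is an interferon-induced GTPase outside the list. Rsad2 was not called with DESeq2, without NCD replicate 1 or without MCD replicate 2. Gbp2 was not called without MCD replicate 2, and Ifi47 was not called with DESeq2 or without NCD replicate 1. Gbp2 in other cells was at 141, 78.4, 70.5 and 62.0 CPM.

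Hsp90b1 and Adamdec1 also fell, from levels above those of the other cells. Hsp90b1, a chaperone of the endoplasmic reticulum, was at 956, 1113, 427 and 372 CPM (-1.27 ± 0.21, adjusted p = 0.00579 in edgeR), and it was not called without MCD replicate 2. Adamdec1, a secreted metalloprotease, was at 76.1, 99.8, 18.1 and 18.3 CPM (-2.10 ± 0.41) against 5.29, 2.74, 0.743 and 0.907 CPM in other cells. Neither DESeq2 nor the fit without NCD replicate 1 called Adamdec1. Other falls were in genes that endothelial cells and macrophages transcribe, such as Plpp3 (-2.46 ± 0.21), Kdr, a vascular endothelial growth factor receptor (-1.53 ± 0.22), Maf (-2.14 ± 0.21) and the mannose receptor Mrc1 (-1.21 ± 0.22). Their levels in the other cells also lay lower in both MCD libraries, with 284, 513, 46.0 and 90.2 CPM of Kdr and 594, 983, 111 and 168 CPM of Maf. Mrc1 was not called without NCD replicate 1 or without either MCD replicate.

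**Figure D5:**
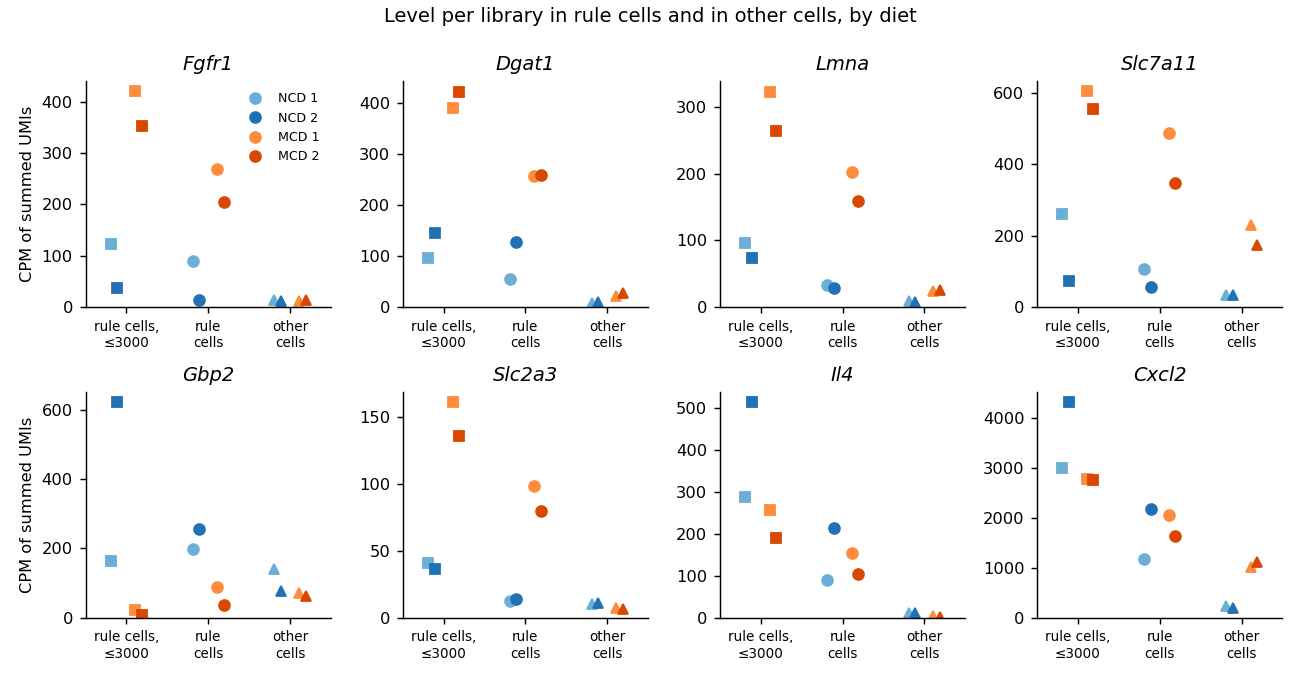
Level in CPM of summed UMIs for 8 genes in the 949 eosinophils of at most 3000 UMIs (squares), all 1064 eosinophils (circles) and other cells (triangles), labelled rule cells and other cells; each point is 1 library, blue for NCD and orange for MCD. Fgfr1 in all eosinophils is at 88.8 and 14.3 CPM on NCD and 268 and 205 CPM on MCD and between 12.1 and 13.6 CPM in other cells of all 4 libraries, while Cxcl2 differs by diet mainly in other cells.

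Whether a diet difference in eosinophils departs from that in the other cells was tested by the class by diet term. Of 10878 genes tested, 396 were called (3.64%), 343 higher (3.15%) and 53 lower (0.487%). This split turned with the scaling, since library totals gave 99 higher and 319 lower and moved the median from 0.23 to -0.24. Over the shallower eosinophils 288 of 10384 were called (2.77%), 247 higher (2.38%) and 41 lower (0.395%), and 201 genes were called in both with the same sign. Of 101 ribosomal protein genes, 58 had a higher term and none a lower one over all cells, 44 and none over the shallower eosinophils, and 19 and 3 by library totals. The genes named next were picked from those 201 after their values had been seen.

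For Il4 and Hdc the other cells had lower levels in both MCD libraries while the eosinophil levels overlapped between diets. Il4 was at 88.8, 214, 153 and 104 CPM in eosinophils and 12.3, 11.9, 3.26 and 2.2 CPM in other cells, a term of 2.63 ± 0.39 (adjusted p = 2.67e-08 in edgeR). Hdc, which makes histamine, was at 190.4, 471, 225 and 231 CPM against 113, 177, 16.3 and 27.1 CPM (2.88 ± 0.29), and the other cells include the basophil gate, which held 11, 15, 2 and 5 cells. Retnla was at 4.23, 0, 69.5 and 36.7 CPM in eosinophils and 55.0, 60.6, 0.905 and 5.77 CPM in other cells, so that the directions were opposite (8.90 ± 0.65, adjusted p = 1.92e-38 in edgeR). Its NCD level in eosinophils rests on 1 UMI. Slc2a3 rose in eosinophils on MCD, 12.7, 14.3, 98.4 and 79.5 CPM, and stayed between 6.49 and 11.3 CPM in other cells (3.81 ± 0.64).

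For Cxcl2, Il1b and Il1rn the term was negative, with higher levels of the other cells in both MCD libraries. Cxcl2 was at 1180.2, 2168, 2061 and 1634 CPM in eosinophils, where the diets overlap, and at 226, 198, 1013 and 1119 CPM in other cells, a term of -1.62 ± 0.26 (adjusted p = 3.28e-07 in edgeR). It was not called without MCD replicate 2. Il1b was at 525, 285, 821 and 813 CPM in eosinophils and 322, 226, 1599 and 1588 CPM in other cells (-1.08 ± 0.29). Leaving out NCD replicate 1 or either MCD replicate ended the call for Il1b. Il1rn was at 237, 585, 410.3 and 279 CPM against 56.7, 41.0, 144 and 121 CPM (-0.99 ± 0.29), and was not called without NCD replicate 2 or either MCD replicate. With Siglecf, Il5ra and Alox15 as the only partner genes 18 terms were called, among them Retnla and Hdc but not the others named here.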

How the data were processed

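Single cells were profiled with the 10x 3' v3 chemistry, per the labels' protocols, and the authors deposited filtered UMI count matrices, made with Cell Ranger 3.0.2 per the file headers on mm10 per the submitters' processing notes. The deposited counts are raw and not normalized. The 4 matrices share 27998 genes, and 694 genes not held by all of them were left out. A barcode needed 200 genes or more and a mitochondrial share of 10% or less, which retained 9609 of 12306. No doublet caller was run and free RNA was not removed. The members and gene lists were chosen with earlier results of these data known.

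UMIs were summed per library and class, and the sums of 2 NCD and 2 MCD libraries were tested with edgeR 4.0.16 (TMM factors, quasi-likelihood test, low counts filtered by filterByExpr, Benjamini-Hochberg adjustment over all genes tested, threshold 0.05) in R 4.3.3, checked on simulated counts. The spread is estimated largely from all genes together, so very small p-values rest on that shared estimate. Each SE of a log2 value is its absolute size divided by the square root of the F statistic, and is approximate. Named genes were the 15 largest rises and falls between the classes among genes with a mean of at least 100 CPM in the higher class, ribosomal protein genes left out, the 10 largest by diet, and the up to 4 called members of each list with the highest mean CPM, plus those called against its majority; further genes called in all and in shallower cells were chosen after their values were seen. DESeq2 1.42.0, other scalings, filters, rules and left-out libraries were alternatives. The limits to 3000 UMIs and the removal of the mitochondrial ceiling were chosen after seeing the data. Shares have exact 95% intervals, which cover counting error only. Positions come from GENCODE M21 on GRCm38, in which 27645 of the 27998 gene IDs were found. Eosinophil sums held 70108 to 1382031 UMIs, so the NCD libraries set the precision of the diet comparison. No check found 2 libraries that differed by less than sampling noise. Values of a few genes that passed the naming rule are not reported here.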

Additional observations from a re-analysis of the deposited data

Results flagged for a closer look

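For 20 genes the diet difference in eosinophils departed from that in the other cells by the class by diet term of the edgeR test, and these are the 10 largest in each direction. The positive terms were 13.83 for Defb40, 12.54 for Gzma, 12.39 for Vsig4, 12.31 for Fabp1 and 12.02 for Lpar4. Setd4 stood at 11.93, Clec4f at 11.93, Ccdc180 at 11.55, RP23-218K15.3 at 11.53 and Enah at 11.44. Each of these 10 genes had 0 UMIs in the NCD eosinophils, so the fitted value depends on the prior count and is no bound.

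The negative terms were -2.99 for Acads, -2.78 for Lars2, -2.71 for Gm26917, -2.44 for Cltb and -2.17 for Taf3. Chil3 stood at -2.06, Cebpa at -1.84, Psme2b at -1.75, Tm2d2 at -1.69 and Gm42418 at -1.65. Gzma, Vsig4, Setd4, Clec4f, Ccdc180, Lars2, Gm26917 and Gm42418 were also called over the eosinophils of at most 3000 UMIs.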

How the results depend on the processing

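Of the values of single genes recomputed under the alternatives, 1692 kept direction and side of the threshold, 377 lost the call and 6 reversed. The share difference turned to -5.65 points with at most 5% mitochondrial UMIs and lay between 7.40 and 16.3 points with 1 library left out. Genes called between eosinophils and other cells numbered 462 after thinning, 3998 with eosinophils of at most 3000 UMIs, 1026 without the library block, 68 with both classes limited and 881 with the Ccr3-negative partner-gene cells also removed, and 1315 to 2637 with 1 library left out. Thinning left fewer genes to test; the other causes were not tested. Genes called by diet numbered 117 with DESeq2, 568 with no filter, 205 with at least 2 Ccr3 UMIs, 1 with the narrower partner genes, 65 after thinning, 67 with at most 3000 UMIs and 204 to 435 with 1 library left out. The class by diet term gave 146 with DESeq2, 235 with at least 2 Ccr3 UMIs, 18 with the narrower partner genes, 5 after thinning, and 74 to 471 with 1 library left out; the cause was not tested. Without MCD replicate 1 or MCD replicate 2 it gave 77 and 74. Values that turned sign were Clec12a at 0.29 and 0.50, Fcgr3 at 0.0066, Ifitm1 at -0.14, Cltb at 6.39 and Chil3 at 9.92.

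With the replicate number as a replicate block, 403 genes were called by diet, 201 higher and 202 lower, against 308 without it. Nothing in the labels ties same-numbered libraries, and with 2 pairs they share only a number.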
